A study of Homo sapiens with 12 samples.

Results

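The genes examined here are 49 genes of autophagy and the lysosome, listed by gene symbol for their function: transcription factors of the MiT/TFE family, proteins that start and build autophagosomes, cargo receptors, lysosomal hydrolases, lysosomal membrane proteins and subunits of the proton pump. They were found on the array by gene symbol, and the probe set with the highest mean over all arrays stood for each gene. All 49 were among the 10265 genes tested, that is, genes with a probe set whose log2 signal was above 4 on at least 3 arrays. The symbols matched 114 of the 54675 probe sets, and 94 of these 114 passed that filter.

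Messenger RNA was measured in LNCaP, a human prostate cancer cell line that responds to androgen, on 12 Affymetrix arrays. All cells were deprived of androgen for 48 h and transfected with an siRNA, and 42 h after transfection they were treated for 48 h. The 4 groups of 3 arrays were control siRNA with ethanol vehicle ("control vehicle"), control siRNA with 5 nM R1881, a synthetic androgen ("control R1881"), siRNA against SRF with ethanol vehicle ("silenced vehicle") and siRNA against SRF with 5 nM R1881 ("silenced R1881"). SRF, serum response factor, binds CArG elements together with cofactors that answer to actin or to growth factor signals, and the series asked which genes depend on both SRF and androgen. The sources used here do not name the siRNA sequences, and the labels call the arrays biological replicates without naming separate cultures, so p-values cover only array-to-array spread, which may be technical. All levels below are log2 GCRMA signals with n = 3 arrays per group, ± after a level is the SD, and ± after a change is the standard error from limma. A gene was called, and is said to have risen or fallen, at a limma p adjusted over all 10265 genes under 0.05.

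Autophagy encloses cytoplasm in a double membrane, the autophagosome, and delivers it to the lysosome for digestion. The ULK kinases start the process, the BECN1 lipid kinase complexes mark the forming membrane with PI3P, WIPI proteins read that mark, and ATG2 proteins feed lipid into the membrane. Proteins of a conjugation system that resembles the ubiquitin system (ATG3, ATG7, ATG5, ATG12 and ATG16L1) attach LC3 and GABARAP proteins to it. Receptors such as SQSTM1 bring the cargo. The lysosome is acidified by the V-ATPase and filled with cathepsins and glycosidases, and TFEB, TFE3 and MITF switch on many of these genes through E-box elements in their promoters. In prostate cells, androgen is known to act on both lipid supply and autophagy.

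The promoters of the members were read from RefSeq (GRCh38.p14), which held 250 bases before to 50 after the start of 41 of the 49 genes; UVRAG, ATG4D, CTSB, HEXA, PSAP, LAMP2, ATP6V1A and ATP6V1H were not matched. The E-box CACGTG, a palindrome and so the same on both strands, lay in 9 of these 41 genes (22.0%), against 8.77% of all 27305 genes with such a window and 7.26% of all 35116 windows. The longer form TCACGTG, searched on both strands and overlapping the first, lay in the same 9 members (22.0%) and in 4.49% of all genes. Genes of this kind are known E-box carriers, so this count describes the choice of members. The windows are printed because they hold the element that TFEB and its relatives bind. For each gene the copy nearest the start is given, 30 bases on the gene's strand, with the E-box and any adjoining T before or A after it in capitals.
ATG14 (chr14:55411834-55411863, minus strand): aaaacaaaatccCACGTGActggctctcct
ATG3 (chr3:112561940-112561969, minus strand): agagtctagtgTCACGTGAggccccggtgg
ATP6V0D1 (chr16:67481199-67481228, minus strand): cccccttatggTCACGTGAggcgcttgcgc
CTSA (chr20:45891298-45891327, plus strand): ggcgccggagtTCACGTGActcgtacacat
CTSD (chr11:1763957-1763986, minus strand): gccggccgcgccCACGTGAccggtccgggt
GAA (chr17:80101538-80101567, plus strand): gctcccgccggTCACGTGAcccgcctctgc
LAMP1 (chr13:113297226-113297255, plus strand): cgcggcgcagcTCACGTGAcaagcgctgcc
MCOLN1 (chr19:7522598-7522627, plus strand): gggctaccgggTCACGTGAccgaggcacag
NEU1 (chr6:31862930-31862959, minus strand): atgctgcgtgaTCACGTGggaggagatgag
LAMP1, a main protein of the lysosomal membrane, held 6 such elements from 250 bases before to 50 after its start. In the same span ATG3, CTSA, GAA and MCOLN1 held 2 each, and the other 4 genes held 1. The hexamer AGAACA, part of the androgen response element, searched on both strands, lay in 1 of the 41 members (ATG3) against 17.5% of all genes. The CArG box, the element that SRF binds, lay in 0 of the 41 members against 1.6% of all genes. Both of these searches were added after the expression values were seen, and a missing match says only that these letters are not in this window.

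Checks of the labels were made on genes outside the list. The SRF transcript lay at 6.07 ± 0.14 on the control vehicle arrays and 4.74 ± 0.28 on the silenced vehicle arrays, so that 39.5% was left (change −1.34 ± 0.14, adjusted p = 7.98e-06), and 36.9% was left in R1881. KLK3, which encodes prostate-specific antigen and is a standard androgen target, was 3.26 higher in control R1881 than in control vehicle. Of 10 luminal prostate markers, 8 had a probe set and all 8 were above 4 on all 12 arrays. Of the markers of other cell types, KRT5, KRT14, CD44, CAV1, COL1A2, DCN, LUM, PDGFRB, PTPRC, CD14 and CD3E were above 4 on no array, VIM and COL1A1 were above 4 on all 12, and LYZ was above 4 on 1. The summed level of the 5 basal or mesenchymal markers was 16.4 to 17.1 in the control groups and 17.9 to 19.0 in the silenced groups, that of the 4 leukocyte markers was 9.76 to 10.1 in the other groups and 10.7 to 11.8 in silenced R1881, and that of the 5 fibroblast markers was 16.3 to 17.2 over all groups. The part of these shifts in the results below was not tested. In bulk samples, fewer cells of a type and less RNA per cell cannot be told apart. Arrays of one group correlated at 0.996 to 0.998 and arrays of different groups at 0.966 to 0.988.

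With R1881 in control cells, 13 of the 49 genes rose and 12 fell, and 24 were not called. The 25 called genes are 51% of the members, against 60.6% of all genes tested (26.9% higher and 33.8% lower). Changes of the members were mostly small: 7 of 49 were called and at least 1.5-fold, against 31% of all genes, and 3 of 49 were called and at least 2-fold, against 14.1%. Those 3 were WIPI1, which rose, and ATG3 and CTSH, which fell. The median change of the members was 0.03 against −0.05 over all genes, and the median size of change was 0.25 against 0.36. The R1881 and vehicle arrays did not overlap for 25 members in control cells, against 67.5% of all genes, and for 31 after silencing, against 59.2%. After SRF silencing, R1881 raised 15 members and lowered 7, a share of 44.9% called against 53.1% of all genes (25.5% higher and 27.7% lower), and 6 were at least 1.5-fold, against 23.8%. In both siRNA states the share of members called was below that of all genes. Without the filter on dim probe sets 42.9% of members were called in each state, above the 30.2% and 25.9% of the 19775 genes then tested. The genes added there had no probe set that passed the filter, whereas all 49 members had one, so these shares compare unlike genes.

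A measure of RNA integrity moved with R1881. GAPDH has Affymetrix control probe sets at both ends of its transcript, and the log2 excess of the 3-prime one over the 5-prime one was 0.14 ± 0.09 on the control vehicle arrays, 0.46 ± 0.02 on the control R1881 arrays, 0.36 ± 0.04 on the silenced vehicle arrays and 0.49 ± 0.14 on the silenced R1881 arrays. With this difference as a covariate in the fit, an alternative chosen after seeing the data, the R1881 comparison in control cells called 11 members, 8 of them lower, against 38.2% of all genes. The genes whose call ended were ATG12, ATG13, ATG14, ATG16L1, ATG5, ATP6V1H, CTSA, GLA, HEXA, MAP1LC3B, MCOLN1, NEU1, TFE3, TFEB and ULK1. In that fit the change was −0.49 for ULK1, −0.52 for ATG14 and 0.54 for MCOLN1, against 0.12 for TFEB and −0.0021 for TFE3. The measure ran from 0.067 to 0.244 on the control vehicle arrays and from 0.445 to 0.491 on the control R1881 arrays, so R1881 and this measure cannot be told apart in control cells. On the silenced vehicle arrays it ran from 0.315 to 0.393, above control vehicle as well, so SRF siRNA in vehicle and this measure cannot be told apart either. The same fit called 18 members for R1881 after silencing (against 46.9% of all genes), 21 for SRF siRNA in vehicle (against 38.4%) and 34 for SRF siRNA in R1881 (against 58.9%). For R1881 after silencing the calls of ATG13, ATG4D, HEXA and MCOLN1 (0.55) ended. For SRF siRNA in vehicle the calls of CTSZ, GLA, MAP1LC3B, MITF, TFEB (0.12) and WIPI2 ended. For the difference between the R1881 changes in silenced and control cells, this fit called 6 members, against 18.6% of all genes. ATP6V1H, CTSL and MITF, called for that difference without the covariate, were no longer called.

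The 2 siRNA states share no array, and members called in both moved the same way. Of the 49 genes, 15 were called in both states, all in the same direction (9 higher and 6 lower), against 39.9% of all genes called in both with the same direction. Among all genes, 4260 were called in both states, 4099 of them in the same direction, so such agreement was usual. A further 10 members were called in control cells and not after silencing, 7 after silencing and not in control cells, and 17 in neither. Of all 10265 genes, the numbers in the same order were 1965, 1193 and 2847. These counts are no test of a difference between the states. Across the 49 genes the R1881 changes in the 2 states correlated at r = 0.91 (rho = 0.78), and across all 10265 genes at r = 0.80; genes are not independent replicates.

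**Figure D1:**
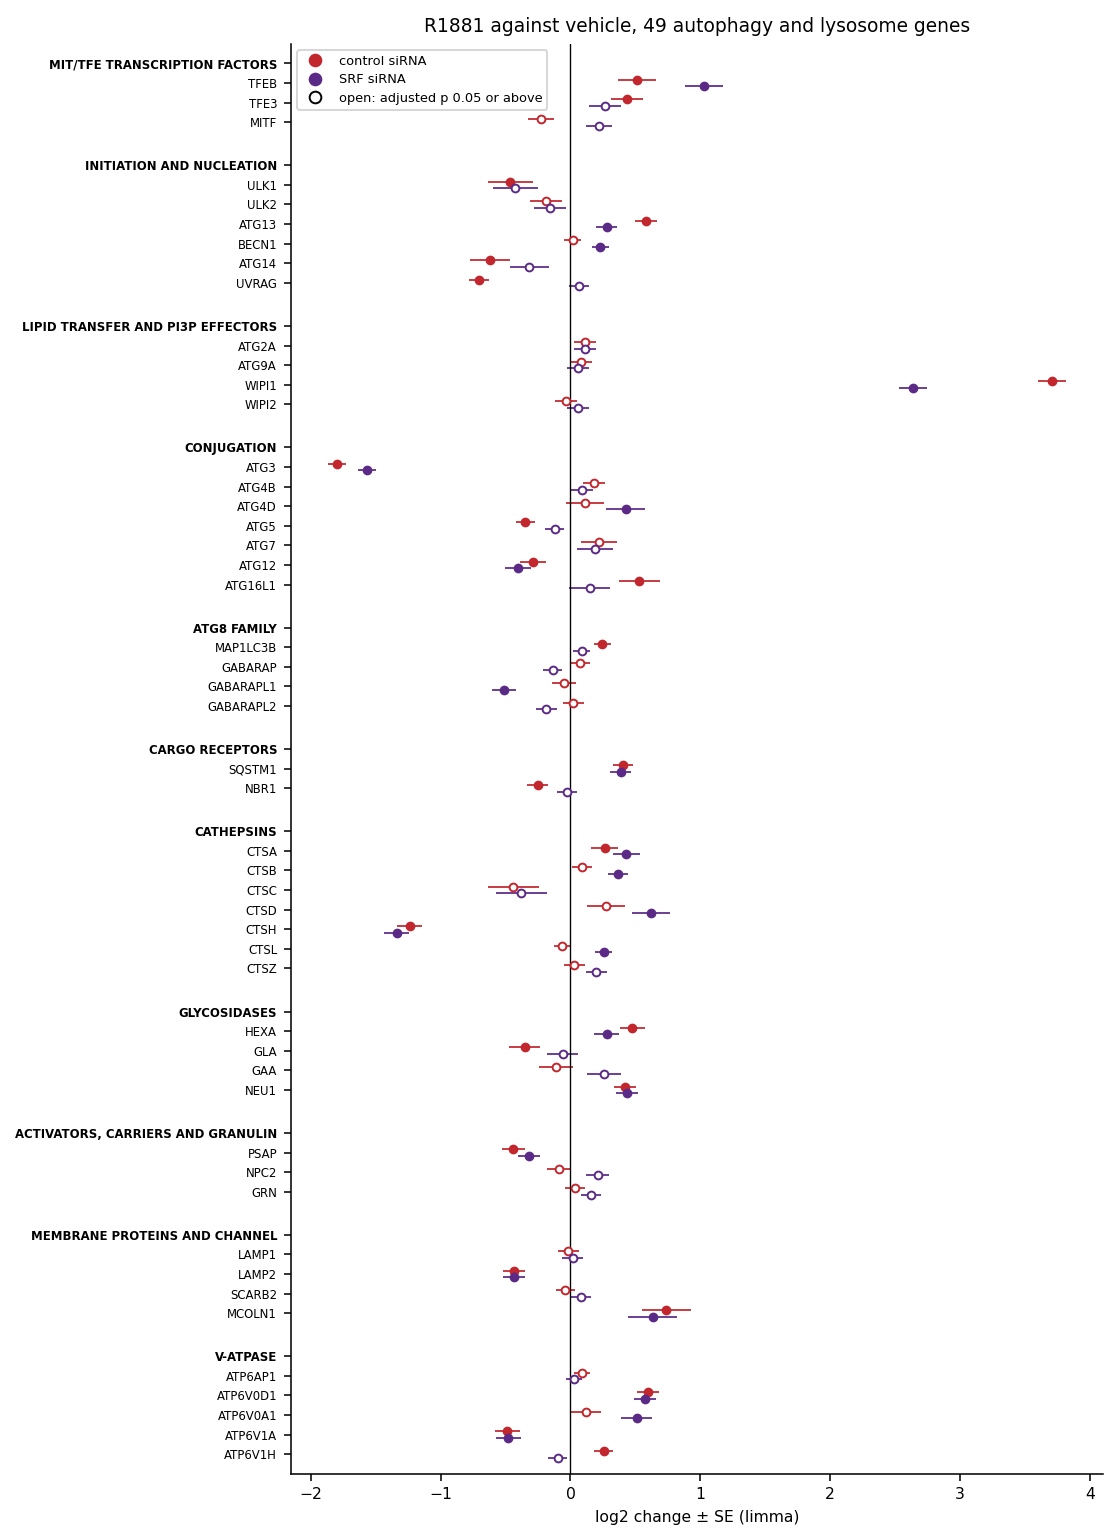
Log2 change with R1881 against vehicle (x axis, ± SE from limma) for the 49 genes grouped by role, with control siRNA in red and SRF siRNA in purple; filled points are called and open points are not. WIPI1 lies farthest to the right (3.71 and 2.64) and ATG3 farthest to the left (−1.80 and −1.56) in both siRNA states.

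Of the MiT/TFE factors, TFEB was the one that rose in all 4 comparisons of R1881 and of SRF siRNA. TFEB is the factor best known for coordinating lysosome formation, and it is held in the cytoplasm by mTORC1 phosphorylation. Its levels were 5.24, 5.48 and 5.16 on the control vehicle arrays, 5.85, 5.96 and 5.61 on the control R1881 arrays, 5.63, 5.59 and 5.82 on the silenced vehicle arrays and 6.37, 6.96 and 6.80 on the silenced R1881 arrays. Every silenced R1881 array was above all 9 other arrays, and control R1881 and silenced vehicle each lay above control vehicle. The R1881 change was 0.51 ± 0.15 (adjusted p = 0.0102) in control cells and 1.03 ± 0.15 (adjusted p = 0.000108) after silencing, and the difference between these changes was not called (0.51 ± 0.21, adjusted p = 0.102). SRF siRNA changed it by 0.39 ± 0.15 (adjusted p = 0.0427) in vehicle, a call that ended when control vehicle array 1 or 3, control R1881 array 1 or any silenced vehicle array was left out (adjusted p from 0.0534 to 0.137), and by 0.90 ± 0.15 (adjusted p = 0.000233) in R1881. Without silenced R1881 array 1 the TFEB difference was called (0.69, adjusted p = 0.0160). Another TFEB probe set that passed the filter was called in none of the 4 comparisons, with changes from −0.09 to 0.36.

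TFE3, which binds the same elements, was at 8.38, 8.36 and 8.04 on the control vehicle arrays, 8.72, 8.62 and 8.76 on the control R1881 arrays, 8.54, 8.45 and 8.61 on the silenced vehicle arrays and 8.54, 8.83 and 9.03 on the silenced R1881 arrays. The control vehicle arrays were the lowest 3 of the 12, and silenced R1881 overlapped both control R1881 and silenced vehicle. It rose with R1881 in control cells by 0.44 ± 0.12 (adjusted p = 0.00879); the change after silencing was 0.27 ± 0.12 (adjusted p = 0.0898), and changes with SRF siRNA were 0.27 in vehicle and 0.10 in R1881, neither called. Neither of its other passing probe sets was called for R1881 in control cells (0.07 and −0.06).

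MITF, the member of the family best known from melanocytes, was at 6.01, 5.90 and 5.66 on the control vehicle arrays, 5.68, 5.68 and 5.54 on the control R1881 arrays, 5.64, 5.69 and 5.50 on the silenced vehicle arrays and 5.78, 5.75 and 5.96 on the silenced R1881 arrays. Its groups overlapped apart from silenced R1881, which lay above control R1881 and silenced vehicle. The change was −0.23 ± 0.10 (adjusted p = 0.0660) with R1881 in control cells and 0.22 ± 0.10 (adjusted p = 0.0823) after silencing, neither called, yet the difference of the 2 was called (0.45 ± 0.14, adjusted p = 0.0377). SRF siRNA changed it by −0.25 ± 0.10 (adjusted p = 0.0490) in vehicle. Another MITF probe set rose with R1881 after silencing (0.62, adjusted p = 0.0169), and its difference of 0.77 was not called (adjusted p = 0.0652). Both MITF calls sit at the threshold: the call in vehicle ended in 10 of the 12 fits that left out 1 array (adjusted p from 0.0528 to 0.181), all except those without control vehicle array 3 or silenced R1881 array 3. The call of the difference ended in 8 of them (adjusted p from 0.0547 to 0.0887), all except those without control vehicle array 3, silenced vehicle array 2 or silenced R1881 array 1 or 2.

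Of the 6 genes that act at the start of autophagy, R1881 raised 1 and lowered 3 in control cells. It raised 26.9% and lowered 33.8% of all genes there. ATG13, the adaptor of the ULK kinase complex, was at 8.40, 8.61 and 8.35 on the control vehicle arrays, 9.02, 9.06 and 9.03 on the control R1881 arrays, 8.42, 8.57 and 8.42 on the silenced vehicle arrays and 8.64, 8.77 and 8.83 on the silenced R1881 arrays. The control R1881 arrays were the highest 3, followed by the silenced R1881 arrays, and the vehicle groups overlapped. It rose with R1881 by 0.58 ± 0.08 (adjusted p = 7.44e-05) in control cells and 0.28 ± 0.08 (adjusted p = 0.0151) after silencing, and was lower with SRF siRNA in R1881 (−0.29 ± 0.08, adjusted p = 0.0109). BECN1, the scaffold of the lipid kinase complexes, rose with R1881 after silencing (0.23 ± 0.06, adjusted p = 0.00935) and was not called in control cells (0.02), and the difference was not called (adjusted p = 0.111). Another BECN1 probe set was not called with R1881 after silencing (0.06).

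UVRAG, a BECN1 partner of the complex that serves endosomes and autophagosome maturation, fell with R1881 in control cells and not after silencing, and this difference was called. Its levels were 6.37, 6.28 and 6.20 on the control vehicle arrays, 5.65, 5.51 and 5.57 on the control R1881 arrays, 6.26, 6.26 and 6.31 on the silenced vehicle arrays and 6.22, 6.33 and 6.46 on the silenced R1881 arrays. The control R1881 arrays lay below all 9 other arrays, and the other groups overlapped. The R1881 change was −0.71 ± 0.08 (adjusted p = 7.23e-06) in control cells and 0.06 ± 0.08 (adjusted p = 0.517) after silencing, a difference of 0.77 ± 0.11 (adjusted p = 0.000378). With SRF siRNA UVRAG was higher in R1881 (0.76 ± 0.08, adjusted p = 4.56e-06) and not called in vehicle (−0.01).

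ATG14, the BECN1 partner that directs the kinase to new autophagosomes, was at 7.00, 6.95 and 7.11 on the control vehicle arrays, 6.86, 6.17 and 6.18 on the control R1881 arrays, 7.15, 7.23 and 7.26 on the silenced vehicle arrays and 6.98, 6.82 and 6.91 on the silenced R1881 arrays. Control R1881 arrays 2 and 3 were the lowest of all, while array 1 overlapped the silenced R1881 group. ATG14 fell with R1881 in control cells (−0.62 ± 0.15, adjusted p = 0.00348), and its change of −0.32 after silencing was not called. ULK1, the kinase that starts autophagy, was at 7.53, 7.44 and 7.06 on the control vehicle arrays, 7.07, 7.08 and 6.49 on the control R1881 arrays, 7.58, 7.23 and 7.37 on the silenced vehicle arrays and 7.07, 6.76 and 7.06 on the silenced R1881 arrays. Control R1881 overlapped control vehicle, and the fall (−0.46 ± 0.17, adjusted p = 0.0345) was not called without control vehicle array 1 or 2 or control R1881 array 3 (adjusted p from 0.0989 to 0.157). Its change after silencing was of like size, −0.42 ± 0.17 (adjusted p = 0.0555), and not called.

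ULK2, the other kinase of this kind, differed with the siRNA. It was at 6.43, 6.52 and 6.15 on the control vehicle arrays, 6.14, 6.23 and 6.15 on the control R1881 arrays, 7.60, 7.44 and 7.11 on the silenced vehicle arrays and 7.19, 7.31 and 7.17 on the silenced R1881 arrays. All 6 silenced arrays lay above all 6 control arrays, and within each siRNA the R1881 and vehicle groups overlapped. SRF siRNA raised ULK2 by 1.02 ± 0.12 (adjusted p = 2.45e-05) in vehicle and 1.05 ± 0.12 (adjusted p = 1.52e-05) in R1881, 2.03-fold and 2.07-fold, and its R1881 changes of −0.19 and −0.16 were not called. A dimmer ULK2 probe set gave like SRF siRNA changes (1.02 and 0.94), and another of similar brightness gave 0.36 in vehicle and −0.26 (not called) in R1881. That last probe set also fell with R1881 after silencing (−0.37), with a difference of −0.61 (adjusted p = 0.0318). With SRF siRNA, 4 of these 6 genes were higher and 1 was lower in R1881, and 1 was higher in vehicle. The shares of all genes were 33.6% higher and 25.4% lower in R1881, and 30.7% higher in vehicle.

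Among the lipid transfer proteins and PI3P readers, WIPI1 showed the largest R1881 change of all members, 13.1-fold in control cells. WIPI1 binds PI3P on the forming autophagosome. Its levels were 5.04, 5.10 and 5.07 on the control vehicle arrays, 8.66, 8.80 and 8.86 on the control R1881 arrays, 6.19, 6.12 and 5.86 on the silenced vehicle arrays and 8.92, 8.56 and 8.61 on the silenced R1881 arrays. Both R1881 groups lay above both vehicle groups and overlapped each other, and silenced vehicle lay above control vehicle. R1881 raised WIPI1 by 3.71 ± 0.11 (adjusted p = 7.96e-11) in control cells and by 2.64 ± 0.11 (adjusted p = 1.78e-09), 6.23-fold, after silencing, and the 2 changes differed by −1.07 ± 0.16 (adjusted p = 0.000439). The silenced cells started 0.99 ± 0.11 (adjusted p = 1.23e-05) higher in vehicle and differed by −0.08 ± 0.11 (adjusted p = 0.562) in R1881. Another WIPI1 probe set gave 3.53 and 2.77 for R1881 and 0.96 for SRF siRNA in vehicle, all called, and a difference of −0.76 that was not (adjusted p = 0.0964).

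ATG2A, which carries lipid into the growing membrane, was at 7.12, 7.27 and 7.41 on the control vehicle arrays, 7.39, 7.38 and 7.37 on the control R1881 arrays, 7.97, 8.09 and 8.13 on the silenced vehicle arrays and 8.27, 8.04 and 8.21 on the silenced R1881 arrays. The silenced arrays were above the control arrays without overlap, by 0.80 ± 0.09 (adjusted p = 1.10e-05) in vehicle and 0.80 ± 0.09 (adjusted p = 8.37e-06) in R1881. R1881 changed it by 0.11 in both siRNA states, called in neither. WIPI2, a relative of WIPI1 that recruits ATG16L1, rose with SRF siRNA by 0.32 and 0.41, and R1881 changed it by −0.04 and 0.06 (not called). A dimmer WIPI2 probe set, at 5.81 in control vehicle, rose with R1881 by 1.00 (adjusted p = 7.40e-05) in control cells and 0.70 (adjusted p = 0.00150) after silencing, so its R1881 response depends on the probe set. ATG9A, the lipid scramblase, was called in none of the comparisons.

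**Figure D2:**
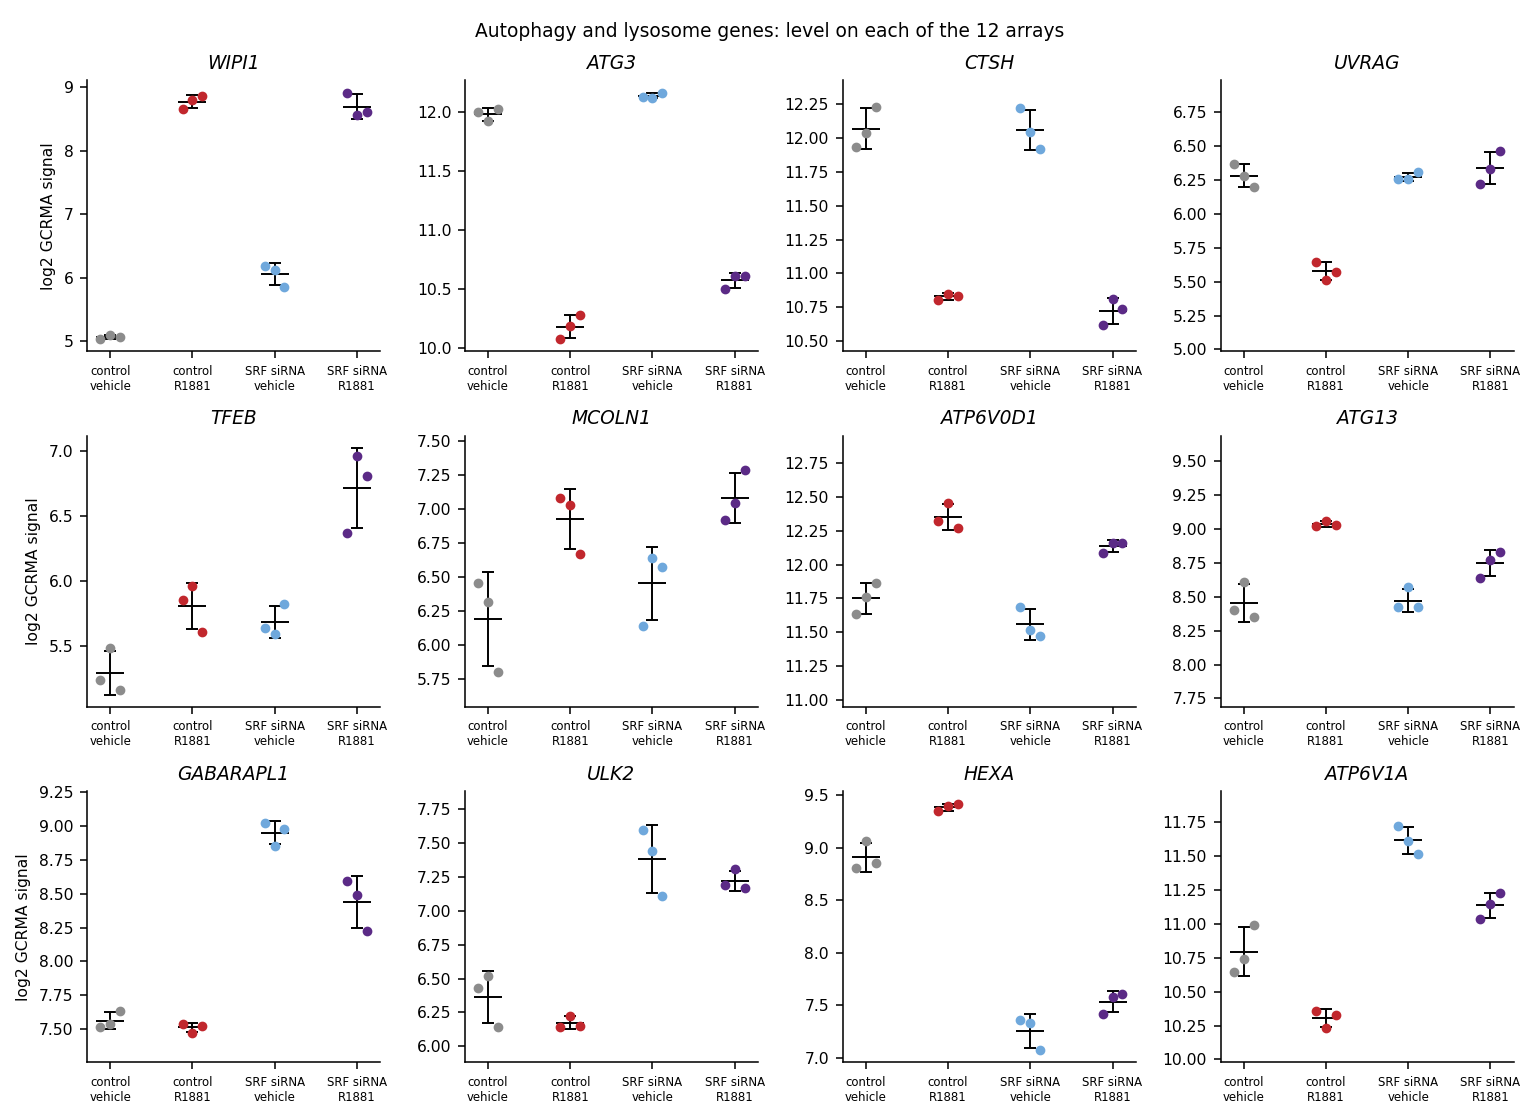
Log2 GCRMA signal (y axis) of 12 of the genes on each array (points) in the 4 groups, with the group mean and SD of 3 arrays (bars); each panel has its own axis range and does not start at 0. WIPI1 is at 8.77 and 8.69 in the R1881 groups, from different vehicle levels (5.07 and 6.06), and UVRAG is low in control R1881 alone.

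Of the 7 conjugation genes, R1881 lowered 3 and raised 1 in control cells, where 33.8% of all genes fell and 26.9% rose. ATG3, the enzyme that passes LC3 to its lipid anchor, fell most. It was at 12.00, 11.92 and 12.03 on the control vehicle arrays, 10.08, 10.19 and 10.28 on the control R1881 arrays, 12.13, 12.12 and 12.17 on the silenced vehicle arrays and 10.50, 10.62 and 10.61 on the silenced R1881 arrays. All R1881 arrays lay below all vehicle arrays, and in R1881 the silenced arrays lay above the control arrays. The change was −1.80 ± 0.07 (adjusted p = 7.78e-10) in control cells, leaving 28.7% of the vehicle signal, and −1.56 ± 0.07 (adjusted p = 3.30e-09) after silencing, leaving 33.8%; the difference was not called (0.23, adjusted p = 0.114). From 250 bases before to 50 after its start, ATG3 carries 2 E-boxes and an AGAACA match, not all of them within the printed bases. AGAACA lay in 17.5% of all genes, and a part of these elements in the fall was not tested.

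ATG16L1, which with ATG5 and ATG12 sets the site of LC3 attachment, was at 4.80, 5.10 and 4.88 on the control vehicle arrays, 5.58, 5.35 and 5.45 on the control R1881 arrays, 4.81, 5.18 and 5.60 on the silenced vehicle arrays and 5.27, 5.38 and 5.38 on the silenced R1881 arrays. Control R1881 lay above control vehicle, while the silenced vehicle arrays spread from 4.81 to 5.60 and overlapped all other groups. It rose by 0.53 ± 0.16 (adjusted p = 0.0121) in control cells, and the change of 0.15 after silencing was not called. ATG5 (−0.35) and ATG12 (−0.29) fell with R1881 in control cells, and ATG12 also fell after silencing (−0.41). Both rose with SRF siRNA in R1881 (0.33 and 0.57), and ATG12 rose in vehicle as well (0.69), whereas ATG7, the activating enzyme, fell (−0.57 and −0.61). ATG4D, a protease that trims LC3 and GABARAP, rose with R1881 after silencing (0.42 ± 0.15, adjusted p = 0.0298), and ATG4B was called nowhere on its chosen probe set. Both other passing ATG4B probe sets rose with R1881 in control cells (0.32 and 0.47) and fell with SRF siRNA in R1881 (−0.25 and −0.56).

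Probe sets of ATG5 and ATG12 disagreed. Another ATG5 probe set fell with SRF siRNA (−2.20 in vehicle and −1.98 in R1881), from 6.70 to 4.50 and from 6.46 to 4.48, where the chosen one rose or was not called. For ATG12, 1 other probe set rose by 0.37 with R1881 in control cells, against −0.29 on the chosen one. The direction of these 2 genes in those comparisons thus depends on the probe set. Another ATG3 probe set rose with SRF siRNA in vehicle (1.13), where the chosen one was not called. Over all members, another passing probe set was called where the chosen one was not for 5 genes with R1881 in control cells and 4 after silencing, for 3 with SRF siRNA in vehicle and 2 in R1881, and for 3 in the difference, with p-values adjusted over all passing probe sets.

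The ATG8 proteins coat the autophagosome and bind receptors. SRF siRNA raised 3 of the 4 in vehicle: GABARAPL1, GABARAP (0.34 ± 0.07) and MAP1LC3B (0.18 ± 0.07), the gene of LC3B. It raised 30.7% of all genes there. GABARAPL1 was at 7.52, 7.54 and 7.64 on the control vehicle arrays, 7.54, 7.47 and 7.52 on the control R1881 arrays, 9.02, 8.85 and 8.97 on the silenced vehicle arrays and 8.60, 8.49 and 8.22 on the silenced R1881 arrays. The 2 control groups overlapped, silenced vehicle was the highest group and silenced R1881 lay between. SRF siRNA raised it by 1.39 ± 0.09 (adjusted p = 2.11e-07) in vehicle, 2.61-fold, and by 0.92 ± 0.09 (adjusted p = 3.90e-06) in R1881. It fell with R1881 after silencing (−0.51 ± 0.09, adjusted p = 0.000555) and not in control cells (−0.05), a difference of −0.46 ± 0.13 (adjusted p = 0.0236). Another GABARAPL1 probe set rose by 1.47 and 0.99 with SRF siRNA, and by 0.31 with R1881 in control cells, and its difference of −0.48 was not called. Another MAP1LC3B probe set was not called with SRF siRNA in vehicle (0.08) and fell in R1881 (−0.22), where the chosen one was not called (0.02). The SRF siRNA response of MAP1LC3B thus depends on the probe set. GABARAPL2 fell with SRF siRNA in R1881 (−0.32).

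Both cargo receptors were lower with SRF siRNA in vehicle, where 25% of all genes fell. SQSTM1, or p62, which links ubiquitin to LC3, rose with R1881 by 0.40 ± 0.08 and 0.39 ± 0.08 and fell with SRF siRNA (−0.54 ± 0.08 in vehicle and −0.56 ± 0.08 in R1881). Another SQSTM1 probe set showed the same directions at larger size, 1.36 and 1.82 with R1881 and −1.42 and −0.97 with SRF siRNA. A dimmer one was called for R1881 after silencing (0.39) and SRF siRNA in vehicle (−0.43). It was not called for R1881 in control cells (0.17) or SRF siRNA in R1881 (−0.20). The dimmest that passed was called for R1881 in control cells (0.54) and SRF siRNA in R1881 (−0.88). It was not called for R1881 after silencing (−0.0043) or SRF siRNA in vehicle (−0.33). NBR1, a receptor with a like build, fell with R1881 in control cells (−0.25) and with SRF siRNA in vehicle (−0.36).

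Of the 7 cathepsins, proteases of the lysosome, R1881 raised 1 and lowered 1 in control cells, and raised 4 and lowered 1 after silencing. Of all genes, it raised 26.9% and lowered 33.8% in control cells, and raised 25.5% and lowered 27.7% after silencing. CTSH, which acts mainly as an aminopeptidase, fell in both states. It was at 11.93, 12.04 and 12.23 on the control vehicle arrays, 10.80, 10.85 and 10.84 on the control R1881 arrays, 12.22, 12.04 and 11.92 on the silenced vehicle arrays and 10.62, 10.81 and 10.73 on the silenced R1881 arrays. R1881 arrays lay below vehicle arrays without overlap, and the siRNA groups overlapped. The change was −1.24 ± 0.10 (adjusted p = 3.30e-07) in control cells, leaving 42.4%, and −1.34 ± 0.10 (adjusted p = 2.42e-07) after silencing, leaving 39.6%; SRF siRNA changed it by −0.01 and −0.11, neither called.

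CTSD, the main aspartic protease of the lysosome, was at 7.54, 7.70 and 7.12 on the control vehicle arrays, 7.80, 7.77 and 7.61 on the control R1881 arrays, 7.09, 7.17 and 7.28 on the silenced vehicle arrays and 8.02, 7.56 and 7.82 on the silenced R1881 arrays. The control groups overlapped, and silenced R1881 lay above silenced vehicle. It rose with R1881 after silencing (0.62 ± 0.15, adjusted p = 0.00374), and the change of 0.27 in control cells was not called, nor was the difference (adjusted p = 0.263). CTSL, a cysteine protease, was at 9.61, 9.68 and 9.61 on the control vehicle arrays, 9.58, 9.62 and 9.51 on the control R1881 arrays, 9.50, 9.50 and 9.60 on the silenced vehicle arrays and 9.82, 9.75 and 9.79 on the silenced R1881 arrays. The silenced R1881 arrays were the highest 3, and the other groups lay close together. R1881 raised it after silencing by 0.26 ± 0.06 (adjusted p = 0.00508) and changed it by −0.06 in control cells, a difference of 0.32 ± 0.09 (adjusted p = 0.0242). CTSB rose after silencing as well (0.37 ± 0.08), with a difference that was not called (adjusted p = 0.0865). On an equally bright CTSB probe set the difference was called (0.41, adjusted p = 0.0120). CTSA, which protects NEU1, rose with R1881 (0.26 and 0.43) and fell with SRF siRNA (−0.44 and −0.27). CTSZ fell with SRF siRNA (−0.42 and −0.25), and CTSC was called nowhere.

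HEXA, the alpha subunit of the hexosaminidase lost in Tay-Sachs disease, had the largest fall of all members with SRF siRNA. It was at 8.80, 9.06 and 8.86 on the control vehicle arrays, 9.34, 9.39 and 9.41 on the control R1881 arrays, 7.36, 7.33 and 7.07 on the silenced vehicle arrays and 7.42, 7.58 and 7.60 on the silenced R1881 arrays. All 4 groups were apart, with the silenced arrays far below the control arrays and R1881 above vehicle within each siRNA. SRF siRNA changed it by −1.66 ± 0.10 (adjusted p = 6.99e-08) in vehicle, leaving 31.7%, and by −1.85 ± 0.10 (adjusted p = 2.09e-08) in R1881, leaving 27.7%. R1881 raised it by 0.47 ± 0.10 (adjusted p = 0.00101) in control cells and 0.28 ± 0.10 (adjusted p = 0.0275) after silencing.

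NEU1, the lysosomal sialidase, had the same order of groups. It was at 9.74, 9.86 and 9.72 on the control vehicle arrays, 10.21, 10.27 and 10.11 on the control R1881 arrays, 9.26, 9.11 and 8.99 on the silenced vehicle arrays and 9.62, 9.46 and 9.60 on the silenced R1881 arrays. The 4 groups did not overlap. R1881 raised NEU1 by 0.42 ± 0.09 (adjusted p = 0.00110) and 0.44 ± 0.09 (adjusted p = 0.00111), and SRF siRNA changed it by −0.65 ± 0.09 (adjusted p = 5.02e-05) and −0.64 ± 0.09 (adjusted p = 4.89e-05). GLA, the galactosidase lost in Fabry disease, went the other way, lower with R1881 in control cells (−0.35) and higher with SRF siRNA (0.36 and 0.65). GAA, the glucosidase lost in Pompe disease, was called in none of the comparisons.

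PSAP, the precursor of the saposins that help degrade sphingolipids, was at 12.50, 12.74 and 12.56 on the control vehicle arrays, 12.23, 12.16 and 12.10 on the control R1881 arrays, 12.83, 12.70 and 12.72 on the silenced vehicle arrays and 12.41, 12.33 and 12.55 on the silenced R1881 arrays. Control R1881 lay below all other arrays, silenced vehicle lay above silenced R1881, and both overlapped control vehicle. It fell with R1881, −0.44 ± 0.09 (adjusted p = 0.000751) in control cells and −0.32 after silencing. NPC2, which hands cholesterol out of the lysosome, was at 10.27, 10.45 and 10.37 on the control vehicle arrays, 10.21, 10.38 and 10.22 on the control R1881 arrays, 9.84, 9.75 and 9.52 on the silenced vehicle arrays and 9.92, 9.95 and 9.89 on the silenced R1881 arrays. The silenced arrays lay below the control arrays, with changes of −0.66 ± 0.09 (adjusted p = 6.57e-05) in vehicle and −0.36 ± 0.09 (adjusted p = 0.00471) in R1881, and R1881 changes were not called. GRN, which encodes progranulin, a secreted protein that also works in the lysosome, rose with SRF siRNA by 0.60 and 0.73.

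MCOLN1, the calcium channel of the lysosome and a known TFEB target, was at 6.45, 6.31 and 5.79 on the control vehicle arrays, 7.08, 7.03 and 6.67 on the control R1881 arrays, 6.14, 6.64 and 6.57 on the silenced vehicle arrays and 6.92, 7.04 and 7.29 on the silenced R1881 arrays. All 6 R1881 arrays lay above all 6 vehicle arrays, and the siRNA groups overlapped. R1881 raised it by 0.74 ± 0.19 (adjusted p = 0.00433) in control cells and 0.63 ± 0.19 (adjusted p = 0.0128) after silencing, the second of which was not called without silenced vehicle array 1 or silenced R1881 array 3 (adjusted p = 0.0585 and 0.0525). With the GAPDH covariate neither R1881 change of MCOLN1 was called (0.54 and 0.55). LAMP1 fell with SRF siRNA (−0.30 and −0.26), and SCARB2, the receptor that carries glucocerebrosidase to the lysosome, rose by 0.63 and 0.75.

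LAMP2, the other main membrane protein and a part of chaperone-mediated autophagy, fell with SRF siRNA on its chosen probe set and rose on another. The chosen probe set was at 11.24, 11.48 and 11.55 on the control vehicle arrays, 10.98, 10.96 and 11.03 on the control R1881 arrays, 10.43, 10.31 and 10.31 on the silenced vehicle arrays and 9.87, 10.00 and 9.88 on the silenced R1881 arrays. The 4 groups did not overlap, and silenced R1881 was the lowest. The changes were −0.43 ± 0.09 (adjusted p = 0.000845) and −0.43 ± 0.09 (adjusted p = 0.00109) with R1881 and −1.07 ± 0.09 (adjusted p = 8.89e-07) and −1.07 ± 0.09 (adjusted p = 6.24e-07) with SRF siRNA. Another probe set also fell with SRF siRNA (−1.02 and −0.88). The third, at 8.38 in control vehicle and 10.56 in silenced vehicle, rose by 2.18 ± 0.12 in vehicle and 2.60 ± 0.12 in R1881. The fourth was not called in vehicle (0.14, adjusted p = 0.275) and rose by 1.03 in R1881. R1881 changed that probe set by −1.11 in control cells and by −0.22 (not called) after silencing, a difference of 0.89 ± 0.14 (adjusted p = 0.00139, over all passing probe sets). LAMP2 is known to be spliced into forms with different ends, and which form each of the 4 probe sets detects was not tested.

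**Figure D3:**
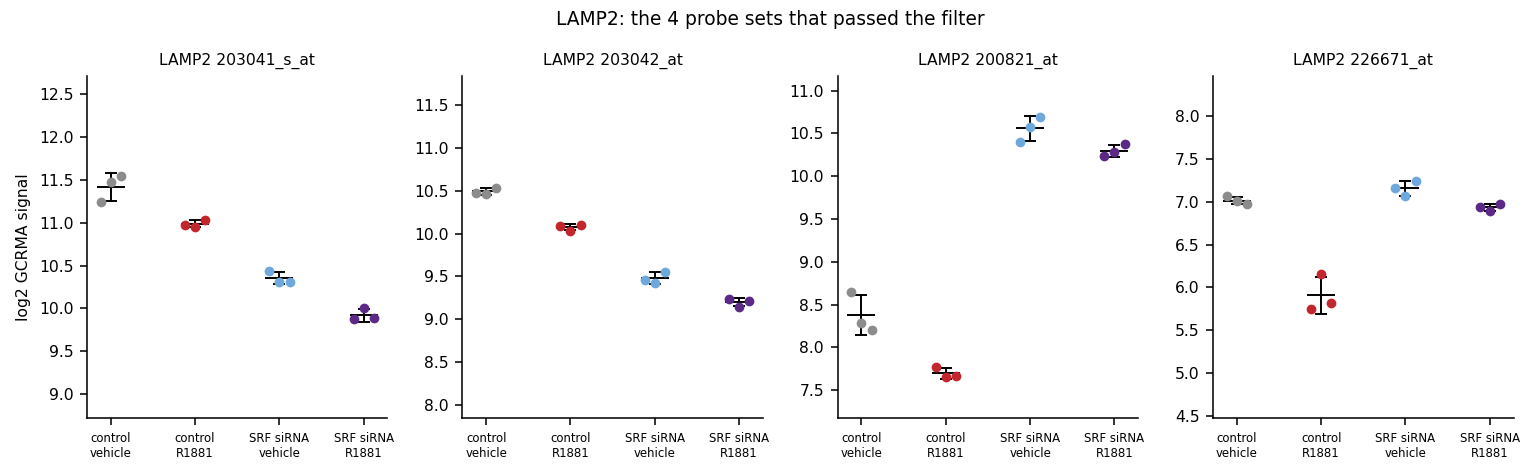
Log2 GCRMA signal (y axis, own range in each panel) of the 4 LAMP2 probe sets that passed the filter, on each array (points) with mean and SD of 3 arrays (bars). The 2 probe sets on the left are lower with SRF siRNA, the third is higher (8.38 against 10.56 in vehicle), and the fourth is low in control R1881 alone.

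The V-ATPase pumps protons into the lysosome, with a V1 part in the cytosol and a V0 part in the membrane. With SRF siRNA, 3 of the 5 members fell and 1 rose in vehicle, where 25% of all genes fell and 30.7% rose. In R1881 4 fell and 1 rose, where 25.4% of all genes fell and 33.6% rose. ATP6AP1, an accessory subunit, was at 11.48, 11.55 and 11.42 on the control vehicle arrays, 11.61, 11.56 and 11.53 on the control R1881 arrays, 10.68, 10.66 and 10.65 on the silenced vehicle arrays and 10.71, 10.67 and 10.68 on the silenced R1881 arrays. The silenced arrays lay below the control arrays, with changes of −0.82 ± 0.06 (adjusted p = 4.85e-07) in vehicle and −0.88 ± 0.06 (adjusted p = 1.87e-07) in R1881, and R1881 changed it by 0.09 and 0.03, called in neither state.

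ATP6V0A1, a membrane subunit of the pump, was at 7.89, 7.85 and 7.56 on the control vehicle arrays, 7.91, 7.91 and 7.84 on the control R1881 arrays, 6.80, 7.04 and 7.16 on the silenced vehicle arrays and 7.50, 7.36 and 7.67 on the silenced R1881 arrays. Within each treatment the silenced arrays lay below the control arrays, and silenced R1881 lay above silenced vehicle. The SRF siRNA change was −0.77 ± 0.12 (adjusted p = 0.000142) in vehicle and −0.38 ± 0.12 (adjusted p = 0.0141) in R1881, and R1881 raised it after silencing by 0.51. Another ATP6V0A1 probe set also fell with SRF siRNA (−1.01 and −0.53), and its R1881 change after silencing was not called (0.30). ATP6V1H, a regulatory subunit of V1, was at 10.17, 10.36 and 10.28 on the control vehicle arrays, 10.58, 10.45 and 10.54 on the control R1881 arrays, 9.92, 9.90 and 9.82 on the silenced vehicle arrays and 9.72, 9.86 and 9.77 on the silenced R1881 arrays. The control R1881 arrays were the highest 3 and the silenced groups overlapped below the control groups. SRF siRNA changed it by −0.39 ± 0.07 (adjusted p = 0.000765) and −0.74 ± 0.07 (adjusted p = 3.73e-06), and R1881 raised it in control cells (0.25) and not after silencing (−0.10), a difference of −0.35 ± 0.10 (adjusted p = 0.0287).

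ATP6V0D1, which joins the 2 parts of the pump, was at 11.63, 11.76 and 11.86 on the control vehicle arrays, 12.32, 12.45 and 12.27 on the control R1881 arrays, 11.69, 11.52 and 11.47 on the silenced vehicle arrays and 12.08, 12.16 and 12.16 on the silenced R1881 arrays. All R1881 arrays lay above all vehicle arrays, by 0.60 ± 0.08 (adjusted p = 6.30e-05) in control cells and 0.58 ± 0.08 (adjusted p = 0.000120) after silencing. Its fall with SRF siRNA in R1881 was small (−0.22 ± 0.08, adjusted p = 0.0449). ATP6V1A, the catalytic subunit of V1, ran against the other 4. It was at 10.64, 10.74 and 10.99 on the control vehicle arrays, 10.36, 10.23 and 10.33 on the control R1881 arrays, 11.72, 11.61 and 11.52 on the silenced vehicle arrays and 11.04, 11.15 and 11.23 on the silenced R1881 arrays. The 4 groups did not overlap, and both silenced groups lay above both control groups. SRF siRNA raised it by 0.82 ± 0.10 (adjusted p = 1.90e-05) and 0.83 ± 0.10 (adjusted p = 1.40e-05), and R1881 changed it by −0.49 ± 0.10 (adjusted p = 0.000881) and −0.48 ± 0.10 (adjusted p = 0.00123).

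Over all members, SRF siRNA raised 13 and lowered 14 in vehicle, a share of 55.1% called against 55.7% of all genes (30.7% higher and 25% lower). In R1881 it raised 18 and lowered 15, a share of 67.3% against 59% of all genes (33.6% higher and 25.4% lower). Called and at least 1.5-fold were 14 members in vehicle, against 25.5% of all genes, and 15 in R1881, against 29.3%. The median change was 0.05 in vehicle and 0.10 in R1881, against 0.04 and 0.06 over all genes. The silenced and control arrays did not overlap for 30 members in vehicle, against 61.2% of all genes, and for 35 in R1881, against 66.6%. The 2 treatments share no array, and 22 members were called in both, all in the same direction (10 higher and 12 lower), against 38.5% of all genes. Among all genes, 4231 were called in both treatments, 3956 of them in the same direction, so such agreement was usual. The changes correlated at r = 0.86 over the 49 genes (rho = 0.82) and at r = 0.71 over all genes. The genes called higher in both were TFEB, ULK2, ATG2A, WIPI2, ATG12, GABARAPL1, GLA, GRN, SCARB2 and ATP6V1A. Those called lower in both were ATG7, SQSTM1, CTSA, CTSZ, HEXA, NEU1, NPC2, LAMP1, LAMP2, ATP6AP1, ATP6V0A1 and ATP6V1H. Comparisons of R1881 and of SRF siRNA share arrays with each other, so their values for a gene are given side by side and not correlated.

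**Figure D4:**
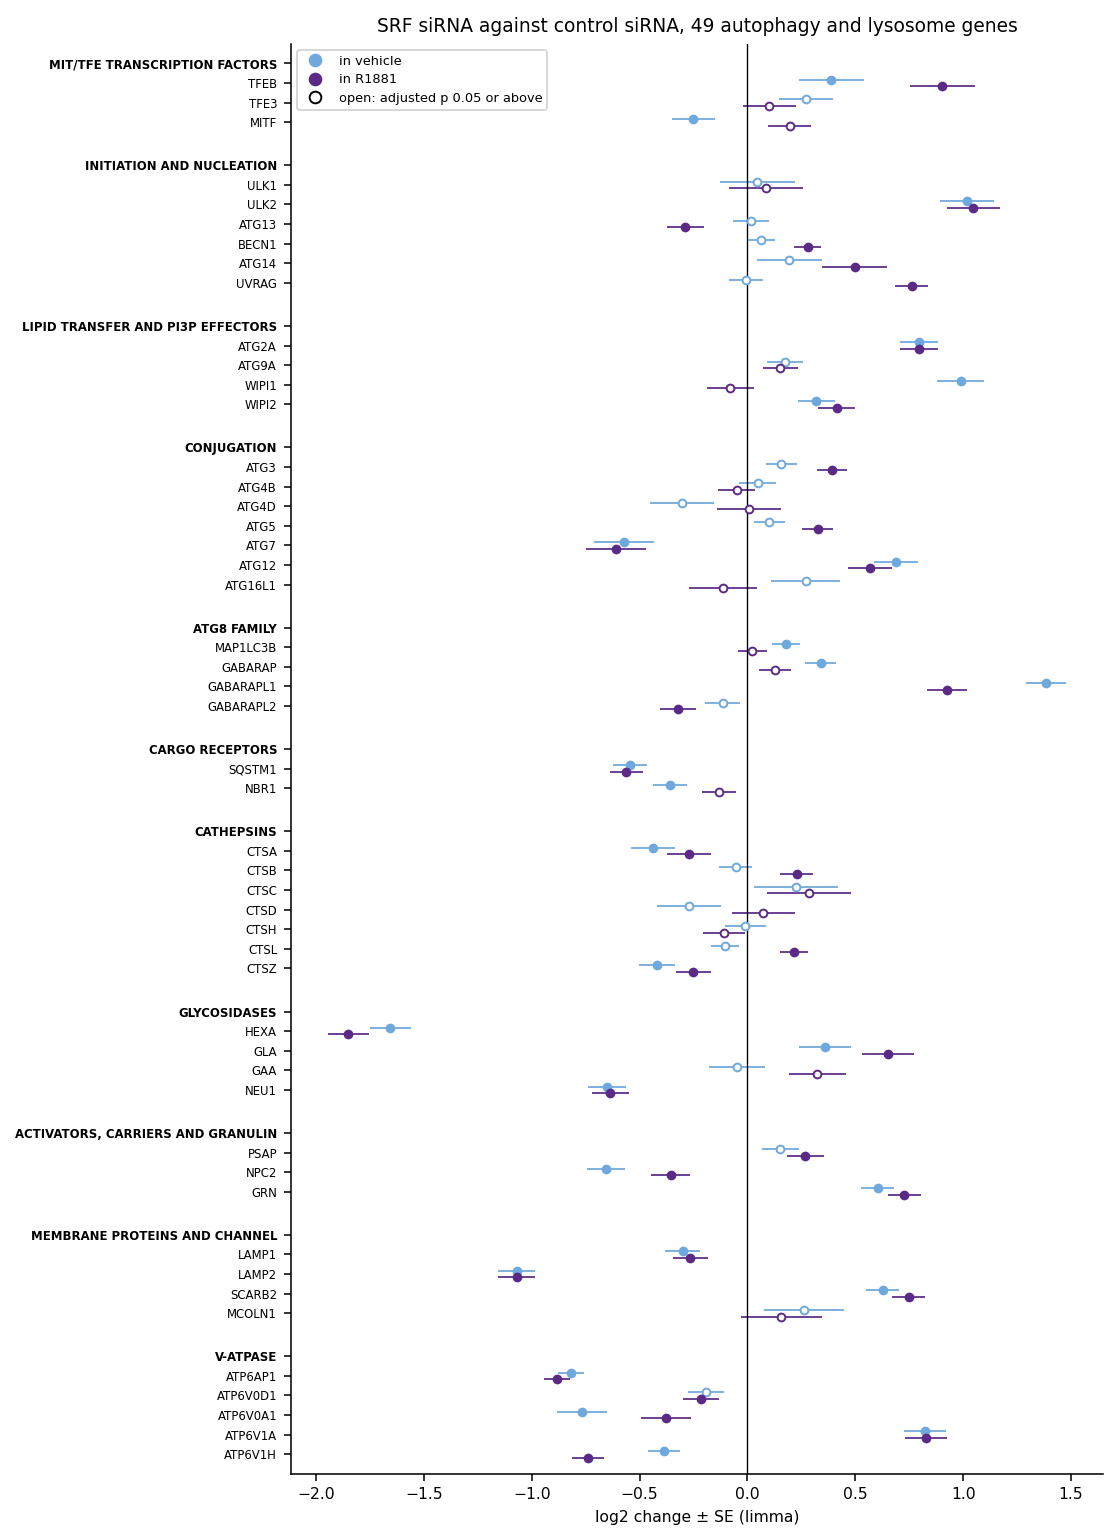
Log2 change with SRF siRNA against control siRNA (x axis, ± SE from limma) for the 49 genes grouped by role, in vehicle (light blue) and in R1881 (purple); filled points are called and open points are not. HEXA (−1.66 and −1.85) and LAMP2 (−1.07 in both) lie farthest to the left, and GABARAPL1 (1.39 and 0.92) and ULK2 (1.02 and 1.05) to the right.

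Leaving out 1 array at a time ended some further calls; the adjusted p of the fits concerned follows each list of arrays. For R1881 in control cells these were ATG12 (control vehicle 1 or 2, control R1881 2 or 3, 0.0509 to 0.115), CTSA (control vehicle 1 or 3, control R1881 1 or 2, silenced vehicle 1 or 3, silenced R1881 2, 0.0502 to 0.130), GLA (control vehicle 1 or 3, control R1881 3, 0.0501 to 0.0925) and NBR1 (control vehicle 3, control R1881 1, 0.0557 to 0.0572). After silencing they were ATG4D (silenced vehicle 1 or 2, silenced R1881 1 or 3, 0.0519 to 0.125), ATG13 (silenced vehicle 3, silenced R1881 3, 0.0504 to 0.0556) and HEXA (silenced vehicle 3, silenced R1881 2 or 3, 0.0793 to 0.118). For SRF siRNA in vehicle they were GLA (control vehicle 1 or 2, silenced vehicle 1 or 3, 0.0543 to 0.0956) and MAP1LC3B (control vehicle 1 or 2, silenced vehicle 2 or 3, 0.0704 to 0.0907). For SRF siRNA in R1881 they were ATP6V0D1 (control vehicle 2, control R1881 1 or 2, silenced vehicle 2, any silenced R1881 array, 0.0564 to 0.169), CTSA (control R1881 1 or 2, silenced R1881 1 or 2, 0.0992 to 0.154), CTSB (control R1881 1 or 2, silenced R1881 2 or 3, 0.0601 to 0.109), CTSZ (control R1881 3, silenced R1881 2 or 3, 0.0567 to 0.0941), ATG14 (control R1881 2 or 3, 0.0598 to 0.0606) and PSAP (control R1881 3, silenced R1881 3, 0.0607 to 0.0698). They also included LAMP1 (control R1881 3, silenced R1881 1, 0.0553 to 0.0592), CTSL (control R1881 3, 0.0537) and ATP6V0A1 (silenced R1881 2, 0.0627). The 4 genes called in none of the 5 comparisons on their chosen probe sets were ATG9A, ATG4B, CTSC and GAA.

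The R1881 effect itself differed between silenced and control cells for 6 of the 49 genes, 12.2%, against 23.8% of all genes (13.2% with a higher and 10.5% with a lower change after silencing). The change was higher after silencing for UVRAG, MITF and CTSL, and lower for WIPI1, GABARAPL1 and ATP6V1H. Of these, MITF, CTSL and ATP6V1H were not called with the GAPDH covariate. UVRAG and WIPI1 were called and differed by at least 1.5-fold, 2 of 49 against 13.4% of all genes. The calls of UVRAG and WIPI1 held in all 12 fits that left out 1 array. That of CTSL ended without control vehicle array 2, control R1881 array 3 or silenced vehicle array 2 (adjusted p from 0.0536 to 0.0651). That of GABARAPL1 ended without control R1881 array 1 or silenced vehicle array 1 (adjusted p from 0.0505 to 0.0519). That of ATP6V1H ended in 7 of the 12 such fits (adjusted p from 0.0515 to 0.0699), all except those without control vehicle array 2 or 3, control R1881 array 2, silenced vehicle array 3 or silenced R1881 array 2.

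The 9 members with an E-box in the window given above can be set beside the other 32 with a window. With R1881 in control cells 4 of the 9 rose (MCOLN1, ATP6V0D1, NEU1 and CTSA), 2 fell (ATG3 and ATG14) and 3 were not called, against 7, 6 and 19 of the 32. After silencing 5 rose, 1 fell and 3 were not called, against 7, 3 and 22. With SRF siRNA in vehicle 3 fell (NEU1, CTSA and LAMP1) and 6 were not called, while 12 of the 32 rose, 8 fell and 12 were not called. In R1881 2 rose and 4 fell, against 12 and 8. Of all genes tested, 26.9% rose and 33.8% fell with R1881 in control cells, and 25.5% rose and 27.7% fell after silencing. With SRF siRNA, 30.7% of all genes rose and 25% fell in vehicle, and 33.6% rose and 25.4% fell in R1881. The member counts are a description of 2 unequal groups, with no test.

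Other genes of the pathways were taken from lists by function, 118 of which were tested. R1881 raised 52 and lowered 23 of them in control cells and raised 55 and lowered 16 after silencing, 63.6% and 60.2% called against 60.6% and 53.1% of all genes. Of the other V-ATPase subunits (12 tested), R1881 raised 9 in control cells, with 3 not called, and raised 7 and lowered 1 after silencing. Of all genes, it raised 26.9% in control cells, and raised 25.5% and lowered 27.7% after silencing. SRF siRNA raised 2 and lowered 5 of these subunits in vehicle, where 30.7% of all genes rose and 25% fell. In R1881 it lowered 9, with 3 not called, against 25.4% of all genes lower. Examples are ATP6V0A2, a membrane subunit, which rose with R1881 by 1.25 and 1.22, and ATP6V1B2, a catalytic-ring subunit, which fell with SRF siRNA (−0.98 and −1.05). In the difference of R1881 effects 3 of these 12 were called, all lower after silencing, among them ATP6V1G1 (−0.62 ± 0.15). For that difference, 10.5% of all genes were called lower.

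Among the other autophagy proteins (21 tested), 11 rose and 3 fell with R1881 in control cells, where 26.9% of all genes rose and 33.8% fell. ATG101, a partner of ATG13, rose by 1.38 ± 0.10 in control cells and 0.94 ± 0.10 after silencing, and RB1CC1, the scaffold of the same complex, fell (−1.06 ± 0.07 and −0.42 ± 0.07). Both differences were called (−0.44, adjusted p = 0.0350, and 0.64, adjusted p = 0.000903). TMEM41B, an ER scramblase that serves early autophagosomes, fell with SRF siRNA (−1.28 and −1.44). Among the other cargo receptors (9 tested), RETREG1, a receptor for the ER, fell with R1881 (−1.74 and −1.23). OPTN, a receptor for mitochondria and bacteria, stood at 7.27 in control vehicle, 7.44 in control R1881, 5.96 in silenced vehicle and 7.66 in silenced R1881. Its R1881 change was 1.70 ± 0.11 after silencing, with a difference of 1.53 ± 0.15 (adjusted p = 2.59e-05).

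Of the nutrient-sensing genes of the lysosome surface (24 tested), 11 rose and 5 fell with R1881 in control cells. There, 26.9% of all genes rose and 33.8% fell. After silencing 5 of the 24 rose and 3 fell, 33.3% called against 53.1% of all genes. The difference between the states was called for 5 of the 24, against 23.8% of all genes. MTOR, the kinase that restrains TFEB and ULK1, rose by 1.05 and 1.10. SLC38A9, an arginine sensor, fell (−1.17 and −0.85). FNIP2, a partner of folliculin, rose by 1.15 ± 0.09 in control cells, where it went from 7.85 to 9.00, and stood at 8.05 and 8.07 in the silenced groups, a difference of −1.13 ± 0.13 (adjusted p = 7.21e-05).

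Of the other hydrolases (25 tested), SRF siRNA lowered 13 and raised 4 in vehicle and lowered 9 and raised 8 in R1881. Of all genes, it lowered 25% and raised 30.7% in vehicle, and lowered 25.4% and raised 33.6% in R1881. ASAH1, acid ceramidase, rose with R1881 by 1.26 and 1.42 and fell with SRF siRNA (−1.63 and −1.47), the same order of groups as HEXA and NEU1. TPP1, a tripeptidyl peptidase, rose with SRF siRNA by 1.56 and 1.71. Of the other membrane and sorting genes (27 tested), 14 rose and 3 fell with R1881 after silencing, against 25.5% and 27.7% of all genes. NPC1, the partner of NPC2 in cholesterol export, rose by 0.77 in control cells and 1.44 after silencing, and LAPTM4B, a lysosomal membrane protein, fell (−1.88 and −1.38). TPCN1, an endolysosomal channel, had the largest higher difference of R1881 effects in this group, 0.95 ± 0.10 (adjusted p = 3.24e-05), with levels of 7.34 and 6.92 in the control groups and 7.19 and 7.72 in the silenced groups.

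**Figure D5:**
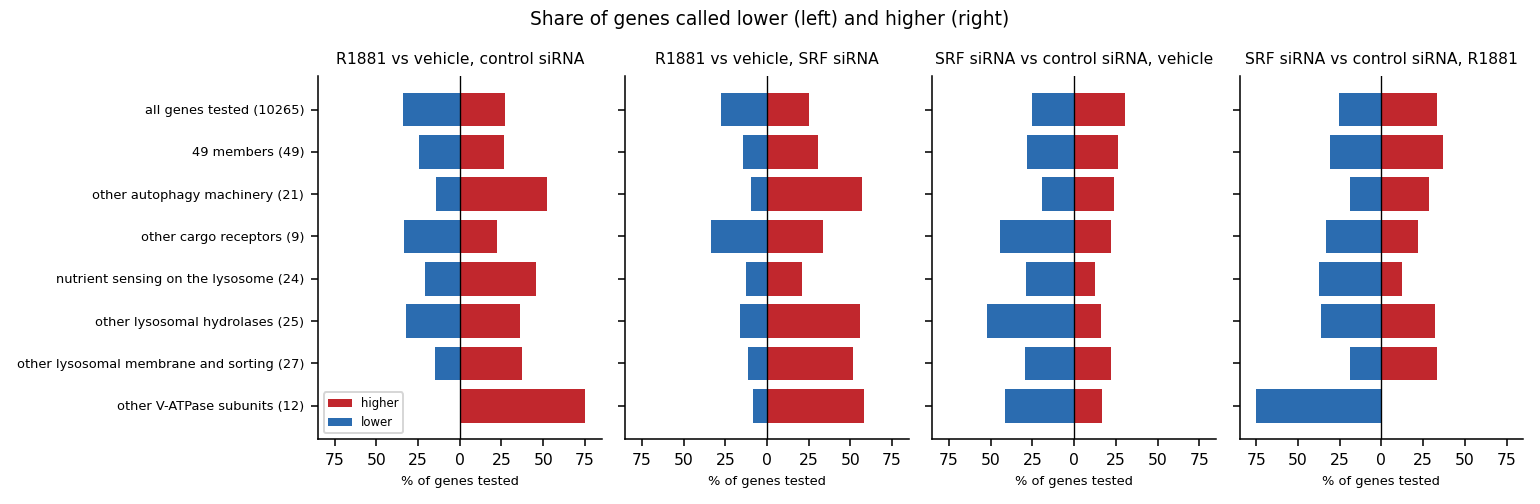
Percent of genes tested (x axis) called lower (blue, left) and higher (red, right) in the 4 comparisons, for all genes tested, the 49 members and 6 lists of other pathway genes, with the number tested in brackets. The other V-ATPase subunits are called higher in 75% with R1881 in control cells and lower in 75% with SRF siRNA in R1881.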

How the data were processed

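The authors deposited 1 log2 value per probe set and array, made with GCRMA, a method that adjusts for background by probe sequence, normalizes by quantiles and summarizes each probe set, per the submitters' processing notes; its version is not given in the sources used here. The labels' protocols give 3.5 µg of total RNA per sample. The scanner files were not used here. Probe sets were named from the platform's gene symbols, and those with no symbol or several were left out. Probe sets passed with a value above 4 on 3 or more arrays, and each gene was represented by its brightest passing probe set. Limma 3.58.1 (R 4.3.3, moderated test, lmFit and eBayes) was fitted to the 4 group means over all 12 arrays, and p-values were adjusted over all 10265 genes by the Benjamini-Hochberg method. The number of arrays limits the precision. The fit was tested on simulated data before use. Promoters came from RefSeq (GRCh38.p14) and were matched by symbol.

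The members, the lists of other pathway genes and the tests were chosen with earlier results of these data known. Per-array values were given for TFEB, TFE3 and MITF, for the 8 called members with the largest rise and the 8 with the largest fall with R1881 in control cells, and for the 5 of each in the other comparisons. From each list of other genes, examples were taken by size of change. Alternatives covered the filter, the probe set rule, scaling, the model of variance, which arrays were fitted, the replicate number as a block and stricter calls. A GAPDH covariate and a fit without the third arrays of the SRF siRNA groups were added after seeing the data. Arrays with the same replicate number did not deviate together (correlations from −0.214 to 0.0994), so the numbers were not used as pairs.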

Additional observations from a re-analysis of the deposited data

Results flagged for a closer look

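Limma's contrast between the R1881 change in silenced and in control cells was called for 6 of the 49 members (12.2%), against 23.8% of all genes. The change was higher after silencing by 0.77 for UVRAG, 0.45 for MITF and 0.32 for CTSL on the log2 scale. The difference was −1.07 for WIPI1, −0.46 for GABARAPL1 and −0.35 for ATP6V1H, each with a lower change after silencing. With the GAPDH covariate, the calls of MITF, CTSL and ATP6V1H ended.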

How the results depend on the processing

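Of 54 called values of the genes with per-array values, 29 kept their direction and their side of the threshold under every alternative that could be fitted, and of 1395 pairs of a called value and an alternative 1273 did so, 116 were no longer called and 6 changed sign. Calls of at least 1.5-fold left 7 members for R1881 in control cells, 6 for R1881 after silencing, 14 for SRF siRNA in vehicle, 15 for SRF siRNA in R1881 and 2 for the difference of R1881 effects. The shares of all genes so called were 31%, 23.8%, 25.5%, 29.3% and 13.4% in that order. The difference called 2 members at an adjusted p under 0.01 (against 13.3% of all genes), 10 with the mean of passing probe sets (against 25.2%), 3 with the probe set of largest variance (against 20.3%) and 3 without the third arrays of the silenced groups (against 18.5%). R1881 in control cells called 11 with the GAPDH covariate (against 38.2% of all genes). Leaving out 1 array gave 22 to 26, 18 to 24, 23 to 28, 28 to 34 and 3 to 7 members in the same order of comparisons, with the 3 found without control R1881 array 3. In those fits 56.1% to 61.1%, 46.9% to 53.3%, 49.8% to 56.4%, 53.6% to 59.5% and 19.7% to 22.8% of all genes were called. With the replicate block the counts were 24, 23, 25, 32 and 4, against 59.9%, 51.8%, 54.4%, 57.7% and 21.4% of all genes. The difference was then not called for MITF (adjusted p = 0.0502) and ATP6V1H (adjusted p = 0.0504). Without the filter 19775 genes were tested. The members called were 21, 21, 24, 31 and 6, against 30.2%, 25.9%, 27.3%, 29% and 11.2% of all genes. The members' share for R1881 (42.9% in both states) was then above that of all genes. That comparison sets members, all of which passed the filter, beside many genes that did not. A fit to only the groups of a comparison gives no value for the difference. The WIPI1 difference was not called with the probe set of largest variance (adjusted p = 0.0950), and every other alternative kept it.

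LAMP2 changed sign with SRF siRNA where other probe sets were used: 0.058 in vehicle and 0.42 in R1881 with the mean of passing probe sets, and 2.18 and 2.60 with the probe set of largest variance. TFE3 changed sign with SRF siRNA in R1881 (−0.039 with the mean, −0.29 with the largest variance, and −0.014 without silenced R1881 array 3, alone or with silenced vehicle array 3, over a range of −0.014 to 0.23 when 1 array was left out). With the probe set of largest variance TFE3 was −0.062 and −0.25 for R1881 in control and silenced cells and −0.10 for SRF siRNA in vehicle. With the GAPDH covariate TFE3 was −0.0021 for R1881 in control cells, −0.026 for SRF siRNA in vehicle and 0.093 for the difference. The same covariate brought a call of the TFEB difference (0.75, adjusted p = 0.0463) and ended those of MITF, CTSL and ATP6V1H. The TFEB difference was also called with the mean of passing probe sets (0.46, adjusted p = 0.0358) and without silenced R1881 array 1 (0.69, adjusted p = 0.0160). The causes of the other changes were not tested. Dim probe sets limit what these arrays can show, and 12 arrays limit the precision.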
